A study of Mus musculus with 64 samples.

Results

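Transcript levels of 10 chromatin regulators, the TET genes Tet1, Tet2 and Tet3 and the CHD genes Chd1, Chd2, Chd4, Chd6, Chd7, Chd8 and Chd9, were followed across 64 RNA sequencing libraries of mouse tissue. They are 10 of the 19521 genes in the deposited tables. They were picked by name, as long-transcript members of their families, with their changes in white adipose tissue (WAT) known, so their WAT values are a description and carry no test. Each of 4 tissues (WAT, liver, heart and muscle) gave 4 libraries in each of 4 groups of male C57BL/6 mice: labelled KO on chow, CTRL on chow, labelled KO on a high-sucrose diet (HSD) and CTRL on HSD. KO denotes Pklr-/- mutants and CTRL wild-type mice, with no promoter, Cre or allele design named. All mice ate chow until 8 weeks of age and then either diet for 8 more weeks, and tissue was taken at 16 weeks. The labels describe 8 mice of each genotype, 4 on each diet, and each library of a group is read as 1 mouse.

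TET enzymes oxidise methylated cytosine in DNA, using oxygen, iron and alpha-ketoglutarate, and so start the removal of the methyl group. CHD proteins are ATP-driven remodellers that move or exchange nucleosomes and carry chromodomains that read histone tails. Both families act in most cell types. Their messenger RNAs are long.

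On GRCm38, the build named in the submitters' processing notes, the TET genes lie at chr10:62804570-62908996 (Tet1), chr3:133463679-133545139 (Tet2) and chr6:83362373-83459084 (Tet3), all on the minus strand. The CHD genes lie at chr17:15704967-15772610 (Chd1, plus strand), chr7:73426638-73541830 (Chd2, minus), chr6:125095981-125130591 (Chd4, plus) and chr2:160946978-161109075 (Chd6, minus). Chd7 lies at chr4:8690406-8867659 (plus), Chd8 at chr14:52198151-52257780 (minus) and Chd9 at chr8:90828352-91054516 (plus). Positions and transcripts are from the GENCODE annotation of that build. The longest annotated coding transcript ran from 6.70 kb for Chd4 to 14.37 kb for Tet1, with 9.18 kb for Tet2, 9.09 kb for Chd2 and 8.51 kb for Chd8. Each gene also has shorter annotated coding transcripts, from 259 bases for Chd9 to 1812 bases for Chd1.

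Promoter sequence is shown for 4 of the genes, chosen after their values were seen: Tet2 and Chd8, whose WAT counts differed most among the genes with a window, and Tet3 and Chd4, whose counts differed little. Each window runs from 250 bases before to 50 bases after a RefSeq transcription start on GRCm38.p6, 5′ to 3′ on the gene's strand. CpG dinucleotides, the sites that TET enzymes act on when methylated, are in capitals.
Tet2 at chr3:133544341-133544640, minus strand: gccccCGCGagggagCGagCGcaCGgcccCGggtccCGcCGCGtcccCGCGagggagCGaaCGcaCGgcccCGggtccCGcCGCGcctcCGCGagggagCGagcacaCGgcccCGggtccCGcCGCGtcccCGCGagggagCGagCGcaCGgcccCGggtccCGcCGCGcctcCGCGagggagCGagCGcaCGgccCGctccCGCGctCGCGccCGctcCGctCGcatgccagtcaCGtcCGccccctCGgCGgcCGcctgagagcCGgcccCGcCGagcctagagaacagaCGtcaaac
Chd8 at chr14:52257711-52258010, minus strand: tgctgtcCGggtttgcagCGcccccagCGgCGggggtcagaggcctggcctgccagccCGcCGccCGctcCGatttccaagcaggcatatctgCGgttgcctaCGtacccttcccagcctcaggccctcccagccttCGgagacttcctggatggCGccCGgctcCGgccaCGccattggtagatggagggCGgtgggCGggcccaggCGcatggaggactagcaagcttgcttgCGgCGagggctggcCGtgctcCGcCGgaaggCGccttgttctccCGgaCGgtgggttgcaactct
Tet3 at chr6:83441629-83441928, minus strand: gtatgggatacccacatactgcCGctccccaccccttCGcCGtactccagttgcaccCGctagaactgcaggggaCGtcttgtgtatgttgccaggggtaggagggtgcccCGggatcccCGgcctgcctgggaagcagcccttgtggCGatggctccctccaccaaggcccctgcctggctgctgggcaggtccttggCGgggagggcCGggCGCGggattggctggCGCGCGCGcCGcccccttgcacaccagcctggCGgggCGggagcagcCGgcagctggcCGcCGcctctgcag
Chd4 at chr6:125095731-125096030, plus strand: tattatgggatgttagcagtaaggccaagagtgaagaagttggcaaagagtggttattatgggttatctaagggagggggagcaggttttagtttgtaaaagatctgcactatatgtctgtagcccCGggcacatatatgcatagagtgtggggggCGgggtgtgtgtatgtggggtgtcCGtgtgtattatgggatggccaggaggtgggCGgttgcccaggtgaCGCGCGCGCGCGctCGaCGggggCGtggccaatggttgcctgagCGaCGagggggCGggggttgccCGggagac
The Tet2 window held 57 CpG dinucleotides, Chd8 26, Tet3 22 and this window of Chd4 17, where the median over 18514 windows of genes in the tables was 16, with quartiles of 5 and 26. RefSeq gave 9 windows for 7 of the 10 genes. Of those not shown, the other Chd4 window held 29 CpG, Chd6 20, Tet1 17 and the Chd9 windows 19 and 1. Whether CpG number goes with the WAT values was not tested. The E-box CACGTG, which reads the same on both strands, was in 0 of the 9 windows and in 8.49% of all windows.

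Library totals, in estimated counts, were 5724000 to 11930000 in WAT, 6715000 to 12060000 in liver, 8078000 to 12190000 in heart and 6669000 to 11690000 in muscle. Marker genes matched the tissue labels, with 6 white adipocyte genes summing to 29330 to 40260 TPM (a relative transcript abundance scaled for length) in WAT and 20.58 to 38.92 TPM in liver. Pklr, the pyruvate kinase of liver and red cells, went against its label: labelled-KO livers averaged 212 ± 55.2 TPM and CTRL livers 113 ± 37.1 TPM on chow (SD, n = 4 each), and on HSD labelled-KO livers averaged 405 ± 63.4 TPM and CTRL livers 213 ± 44.8 TPM. The genotype is therefore given as labelled throughout. A length slope was computed for each library, the slope of its log2 CPM (a count relative to the scaled library total), as deviations from the tissue mean, on log2 transcript length, with the 10 genes left out. A positive slope means relatively more reads of long transcripts. Slopes passed 0.1 in either direction in 4 libraries, namely WAT CTRL chow replicate 2 (0.24) and replicate 4 (0.146), liver CTRL HSD replicate 3 (0.198) and muscle CTRL chow replicate 1 (-0.222).

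In WAT on chow, 6 of the 10 genes (Tet2, Chd2, Chd8, Chd1, Chd6 and Chd9) had lower counts in labelled KO than in CTRL past the threshold of the fit over all genes (edgeR, adjusted p of 0.05). In each of the 6, all 4 labelled-KO libraries lay below all 4 CTRL libraries. The share of all genes with separate groups is not given, and the length slopes of these groups were separate too, so the separation is a description only. Tet2 was lower by 20.3-fold and Chd2 by 7.58-fold, and Chd8, Chd1, Chd6 and Chd9 by 1.71-fold, 1.60-fold, 1.55-fold and 1.52-fold. Tet1, Tet3, Chd4 and Chd7 overlapped between the groups. Across all genes 6.68% were called (885 of 13255) and 5.5% were called lower. Since the 10 genes were chosen on these values, nothing is read from their share. The median log2 fold change was -0.62 over the 10 genes and 0.02 over all genes tested. In bulk tissue, fewer cells of a type and less RNA per cell cannot be told apart.

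**Figure D1:**
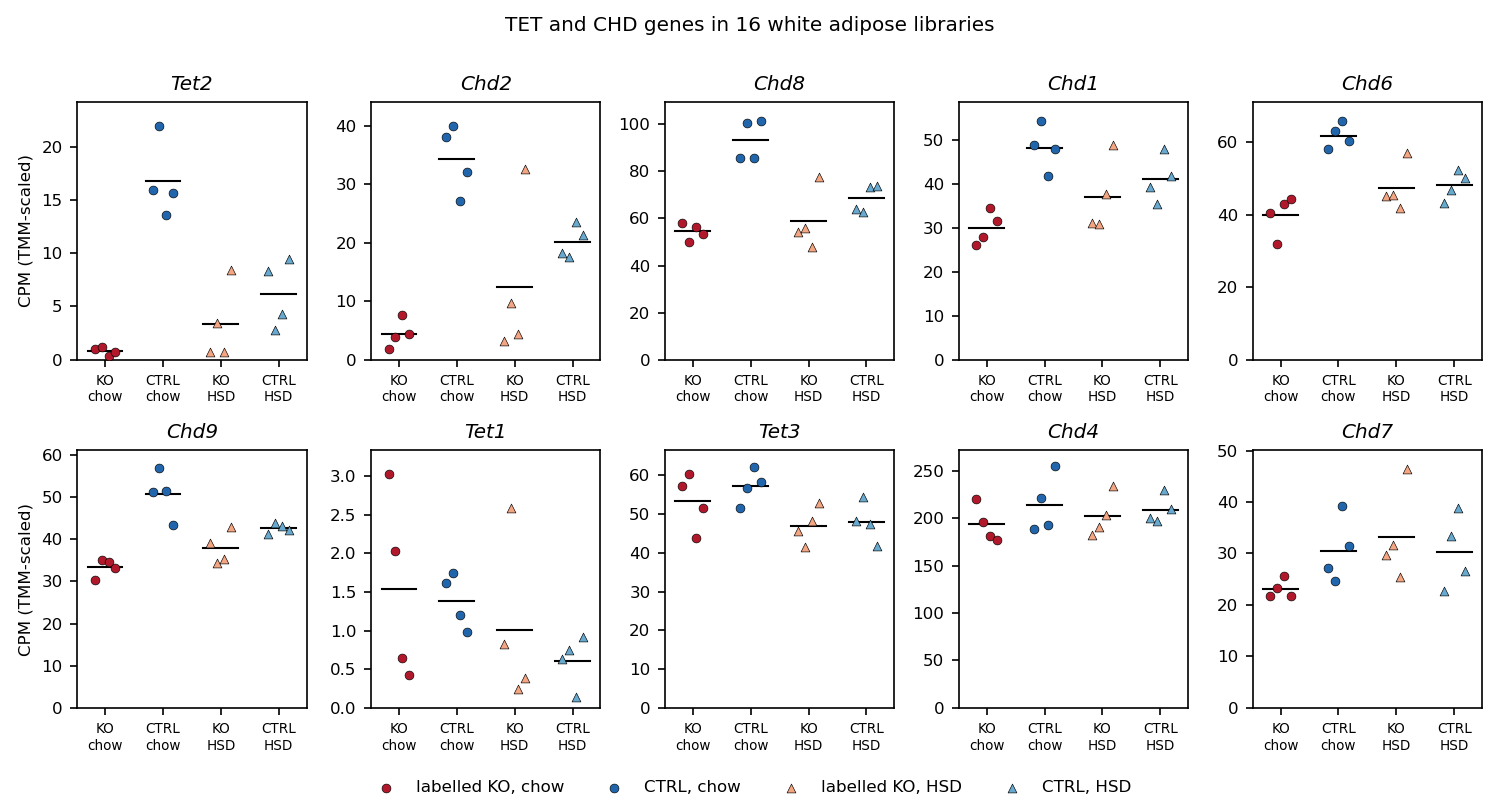
CPM (y axis, TMM-scaled, from 0) of the 10 genes in the 16 WAT libraries, as 4 points per group with the group mean as a line; labelled KO stands left of CTRL within each diet. On chow the groups are separate for 6 genes, and on HSD labelled-KO replicate 4 stands above the other labelled-KO libraries for Tet2 (8.44 CPM) and Chd2 (32.6 CPM).

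Tet2, which lacks the DNA-binding domain of its relatives and is often mutated in human blood cancers, had 1.01, 1.14, 0.391 and 0.740 CPM in labelled-KO chow WAT, against 15.9, 21.9, 13.6 and 15.6 CPM in CTRL chow WAT. All labelled-KO libraries were near the detection limit, with 3.04 to 9.32 estimated counts each, against 128 to 263 in CTRL. The log2 fold change was -4.34 ± 0.68 (SE, n = 4 per group, as for all fitted values below).

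Tet3, the TET enzyme that acts on the paternal genome in the mouse zygote, had 57.3, 60.5, 43.8 and 51.5 CPM in labelled KO and 51.7, 56.6, 62.3 and 58.3 CPM in CTRL on chow. The groups overlapped (log2 fold change -0.11 ± 0.11). Tet1, with the longest transcript of the 10, was scarce at 3.03, 2.03, 0.652 and 0.423 CPM in labelled KO and 1.62, 1.75, 1.21 and 0.976 CPM in CTRL (0.09 ± 0.66). The TET genes thus ran apart: Tet2 alone separated the groups.

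Chd2, a remodeller that acts in the deposition of a histone H3 variant, had 1.85, 3.81, 7.69 and 4.44 CPM in labelled-KO chow WAT, against 38.1, 40.02, 27.2 and 32.1 CPM in CTRL chow WAT. Its highest labelled-KO library lay far under its lowest CTRL library (log2 fold change -2.92 ± 0.57). Chd1, its closest relative, which binds methylated lysine on histone H3, had 25.95, 27.95, 34.4 and 31.6 CPM in labelled KO, against 48.7, 54.3, 41.6 and 47.96 CPM in CTRL. Its groups were also separate, with a smaller gap (log2 fold change -0.68 ± 0.15).

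Chd6, Chd7, Chd8 and Chd9 form a subfamily of large CHD proteins. Chd8, a regulator of beta-catenin targets whose human gene is linked to autism, had 57.96, 49.9, 56.6 and 53.5 CPM in labelled-KO chow WAT, against 85.8, 101, 85.5 and 102 CPM in CTRL chow WAT. The gap exceeded the spread within either group (log2 fold change -0.78 ± 0.13). Chd6 averaged 39.9 ± 5.56 CPM in labelled KO and 61.9 ± 3.43 CPM in CTRL (SD, n = 4 each), a log2 fold change of -0.63 ± 0.12. Chd9 averaged 33.3 ± 2.15 CPM in labelled KO and 50.7 ± 5.52 CPM in CTRL, a log2 fold change of -0.61 ± 0.10. Both had separate groups. Chd7, whose human gene is mutated in CHARGE syndrome, averaged 23.1 ± 1.79 CPM in labelled KO and 30.6 ± 6.36 CPM in CTRL, with overlap (-0.40 ± 0.20). Chd4, the remodelling subunit of the NuRD deacetylase complex, averaged 194 ± 19.7 CPM in labelled KO and 214 ± 30.8 CPM in CTRL, with overlap (-0.14 ± 0.11). It is the member with the shortest full-length transcript.

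The length slopes of these libraries were split in the same way, at -0.0774, -0.0609, -0.0385 and -0.0459 in labelled-KO chow WAT and 0.0739, 0.24, 0.0374 and 0.146 in CTRL chow WAT, with no overlap. Genotype and the length trend of the library cannot be told apart in this comparison. Over genes other than the 10, the median log2 fold change of labelled KO against CTRL on chow was 0.30 where the longest transcript is under 1 kb, 0.18 at 1 to 2 kb, 0.05 at 2 to 4 kb, -0.13 at 4 to 6.5 kb and -0.34 over 6.5 kb. Of the 1525 genes over 6.5 kb, a band that holds all 10 genes by length, 26.7% were called lower and 0% higher. Tet2 and Chd2 lay far below the median of that band, Chd8, Chd1, Chd6 and Chd9 below it by less, Chd7 near it, and Tet1, Tet3 and Chd4 above it.

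**Figure D2:**
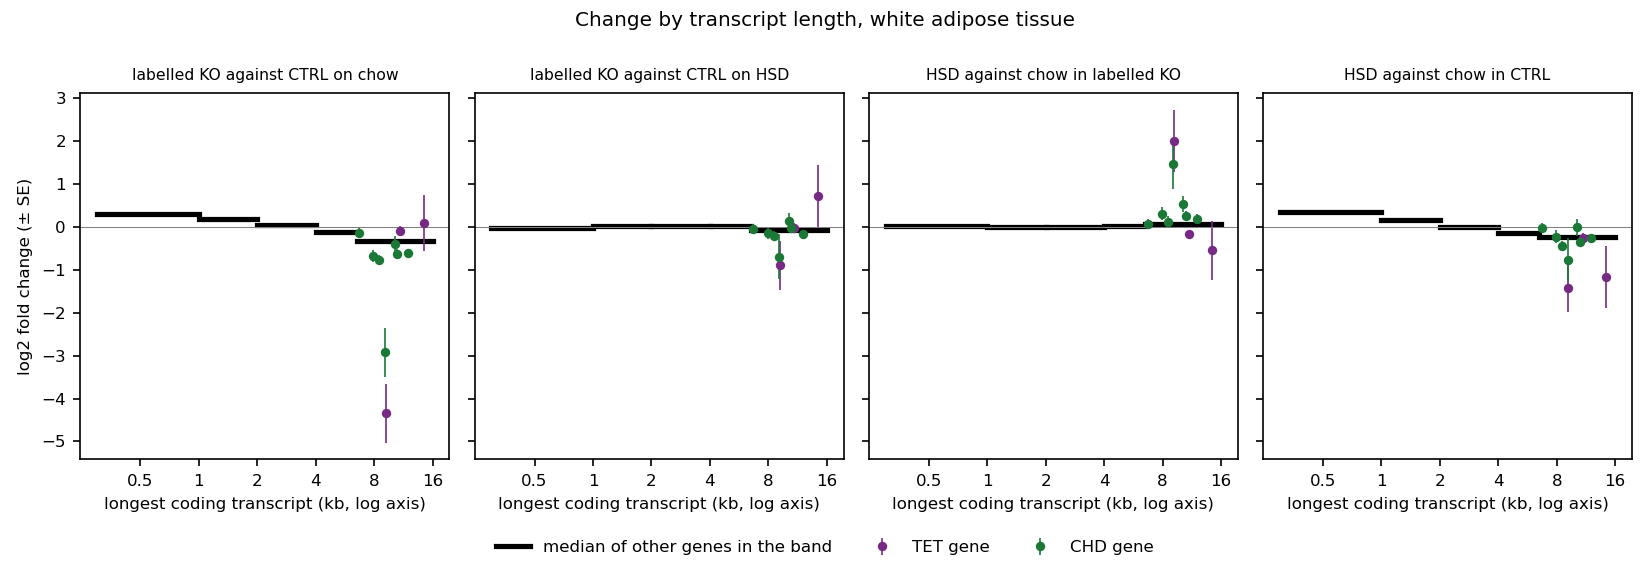
Log2 fold change in WAT (y axis, ± SE) against the longest coding transcript (x axis, kb, log scale) for the 10 genes, with black bars at the median of all other genes in 5 length bands, in 4 comparisons. The band medians run from 0.30 to -0.34 for labelled KO against CTRL on chow and from 0.34 to -0.24 for HSD against chow in CTRL, and lie between -0.08 and 0.05 in the comparisons without CTRL chow.

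The number of genes called depended on how the length trend was handled. With the trend of each library on log2 length removed by loess, 3 of the 10 were called lower, Tet2 at a log2 fold change of -3.97, Chd2 at -2.57 and Chd8 at -0.44, among 112 genes in all. Chd1, Chd6 and Chd9 were then at -0.37, -0.25 and -0.18 and not called, and Tet3 and Chd4 turned to 0.30 and 0.12. With the slope as a covariate beside the 4 group means, 0 of the 10 and 0 of all genes were called by edgeR, with Tet2 at -3.07 and Chd2 at -1.54, and 5 of the 10 had an unadjusted p below 0.05. Without the CTRL chow libraries whose slope passed 0.1, replicates 2 and 4, 1 of the 10 was called, Chd9 at -0.61, among 16 genes, while Tet2 was at -4.14 and Chd2 at -2.83. With the loess trend taken on the median transcript length of a gene in place of its longest, 5 of the 10 were called among 458 genes, Tet2 at -4.16, Chd2 at -3.05, Chd8 at -0.72, Chd1 at -0.55 and Chd6 at -0.55, and Chd9 was at -0.35 and not called. Over these treatments, called or not, Tet2 ran from -4.16 to -3.07 and Chd2 from -3.05 to -1.54. All of the treatments reuse libraries on which the genes were chosen. Whether these values follow genotype or the length trend was not tested. Leaving out any 1 of the 16 libraries kept 5 or 6 of the genes called, and Chd1 was lost without labelled-KO chow replicate 1, labelled-KO chow replicate 2 or CTRL chow replicate 2.

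**Figure D3:**
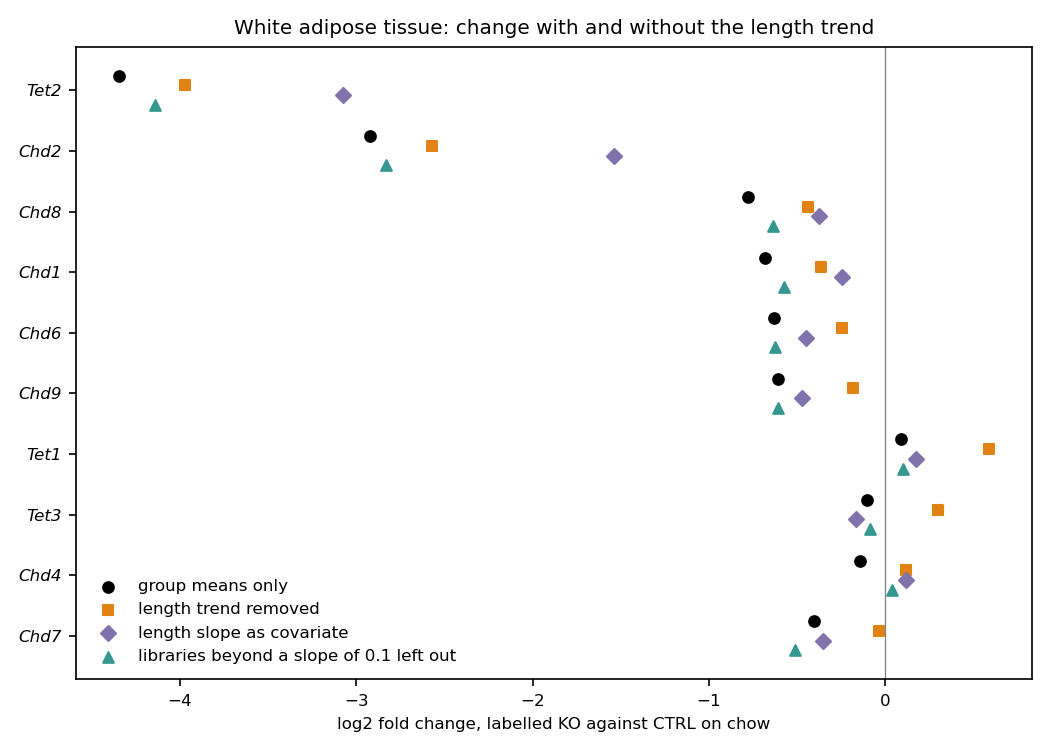
Log2 fold change of the 10 genes (rows) for labelled KO against CTRL on chow in WAT (x axis) under 4 treatments of the length trend, with a symbol for each; the trend on median length is not drawn. Tet2 and Chd2 lie between -4.34 and -1.54, and Chd4 lies at -0.14 with group means only and between 0.04 and 0.12 in the other 3 treatments.

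For Chd8 the count and the TPM disagreed. Its TPM was 40.5, 23.9, 28.97 and 19.7 in labelled-KO chow WAT and 16.5, 24.1, 22.1 and 37.5 in CTRL chow WAT, with wide overlap. A count divided by a TPM, scaled within the library, gives the length that the quantifier assigned to the gene. For Chd8 this implied length was 1.92, 2.87, 2.86 and 3.94 kb in labelled KO and 7.21, 6.16, 5.61 and 3.90 kb in CTRL, shorter in 3 of the 4 labelled-KO libraries than in any CTRL library. With limma on log2(TPM + 1), Chd8 was at 0.18 and not called, and 4 of the 10 were called lower (Tet2, Chd2, Chd1 and Chd9). The implied length of Chd9 hardly moved, at 11.95 to 11.99 kb in labelled KO and 11.7 to 11.9 kb in CTRL. That of Chd2 ranged over 3.18 to 9.33 kb in labelled KO and 4.64 to 8.70 kb in CTRL. Tet1 varied most, on few counts: CTRL chow replicate 1 had 2.42 TPM at an implied 0.950 kb, against 0.178 TPM at 14.5 kb in CTRL chow replicate 2, on similar CPM.

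On HSD the WAT groups overlapped for all 10 genes. Tet2 had 0.713, 3.46, 0.724 and 8.44 CPM in labelled-KO HSD WAT and 8.34, 2.74, 4.27 and 9.40 CPM in CTRL HSD WAT (log2 fold change -0.90 ± 0.58). Chd2 had 3.21, 9.75, 4.34 and 32.6 CPM in labelled KO and 18.2, 17.6, 23.6 and 21.3 CPM in CTRL (-0.70 ± 0.52). In both genes labelled-KO replicate 4 was the highest of its group. It was so for every one of the 10 except Tet1, with Chd8 at 77.8 CPM against 48 to 55.9 CPM in the other 3. The slopes of the labelled-KO HSD libraries were -0.0981, -0.0288, -0.0745 and 0.0206, so the same replicate 4 had the only positive slope among labelled-KO WAT libraries. On HSD 0 of the 10 were called between genotypes by edgeR, with 0 at an unadjusted p below 0.05, and 0 by DESeq2 or limma, where edgeR called 0.106% of all genes. Without labelled-KO HSD replicate 4, 1 of the 10 was called, Chd2 at a log2 fold change of -1.81.

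HSD against chow in CTRL gave values below 0 for all 10 genes in WAT. The median log2 fold change was -0.31 over the 10, -0.24 over the other genes over 6.5 kb and -0.04 over all genes. Of those other genes over 6.5 kb, 8.46% were called lower. The slopes of CTRL HSD WAT, -0.071, -0.0296, -0.0114 and 0.0177, all lay below those of CTRL chow. Chd8 alone was called by edgeR, at 64.2, 62.9, 73.3 and 73.6 CPM in CTRL HSD and 85.8, 101, 85.5 and 102 CPM in CTRL chow (log2 fold change -0.45 ± 0.12), where 4.77% of all genes were called and 2.92% were called lower. The call was lost on leaving out any 1 of 13 of the 16 libraries and with each treatment of the length trend. Tet2 (-1.44 ± 0.54), Tet1 (-1.17 ± 0.72), Chd2 (-0.77 ± 0.50) and Chd6 (-0.36 ± 0.11) were not called by edgeR. The genes called differed by method. DESeq2 called Chd6 and Chd8, and limma on log2(TPM + 1) called Tet2, Tet3, Chd6 and Chd9 but not Chd8. With only the 8 libraries compared, edgeR called Tet2, Chd2 and Chd8. The shares of all genes called in these alternatives are not given.

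In labelled KO, HSD against chow gave values above 0 for 8 of the 10, among them Tet2 (2.01 ± 0.72), Chd2 (1.45 ± 0.58) and Chd7 (0.53 ± 0.20), all with overlap between the diets. Here 0 of the 10 were called by edgeR, against 6.38% of all genes, with 4 of the 10 at an unadjusted p below 0.05. DESeq2 called 1, Tet2 at 2.03, and limma 0. The interaction asks whether the change with HSD differed between genotypes. It was above 0 for all 10, from 0.08 ± 0.16 for Tet3 to 3.44 ± 0.90 for Tet2, with 0.61 ± 0.16 for Chd6, where the median of the other genes over 6.5 kb was 0.28. Of the 10, 0 were called by edgeR, against 0.573% of all genes, 6 had an unadjusted p below 0.05, and DESeq2 called 2 (Tet2 and Chd6) and limma 0. The WAT comparisons share groups, CTRL chow among them.

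Within the 4 WAT groups, the fitted log2 change per 0.1 of length slope was 0.82 ± 0.33 for Chd2, 0.71 ± 0.36 for Tet2, 0.24 ± 0.09 for Chd1 and 0.22 ± 0.07 for Chd8. It was 0.14 ± 0.07 for Chd4, 0.11 ± 0.08 for Chd6, 0.07 ± 0.07 for Chd9 and -0.03 ± 0.08 for Tet3. For Chd7 it was 0.03 ± 0.15 and for Tet1, on few counts, 0.04 ± 0.50. Whether the estimates follow transcript length was not tested. For this term 0 of the 10 were called by edgeR, with 3 at an unadjusted p below 0.05, against 4.07% of all genes called.

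**Figure D4:**
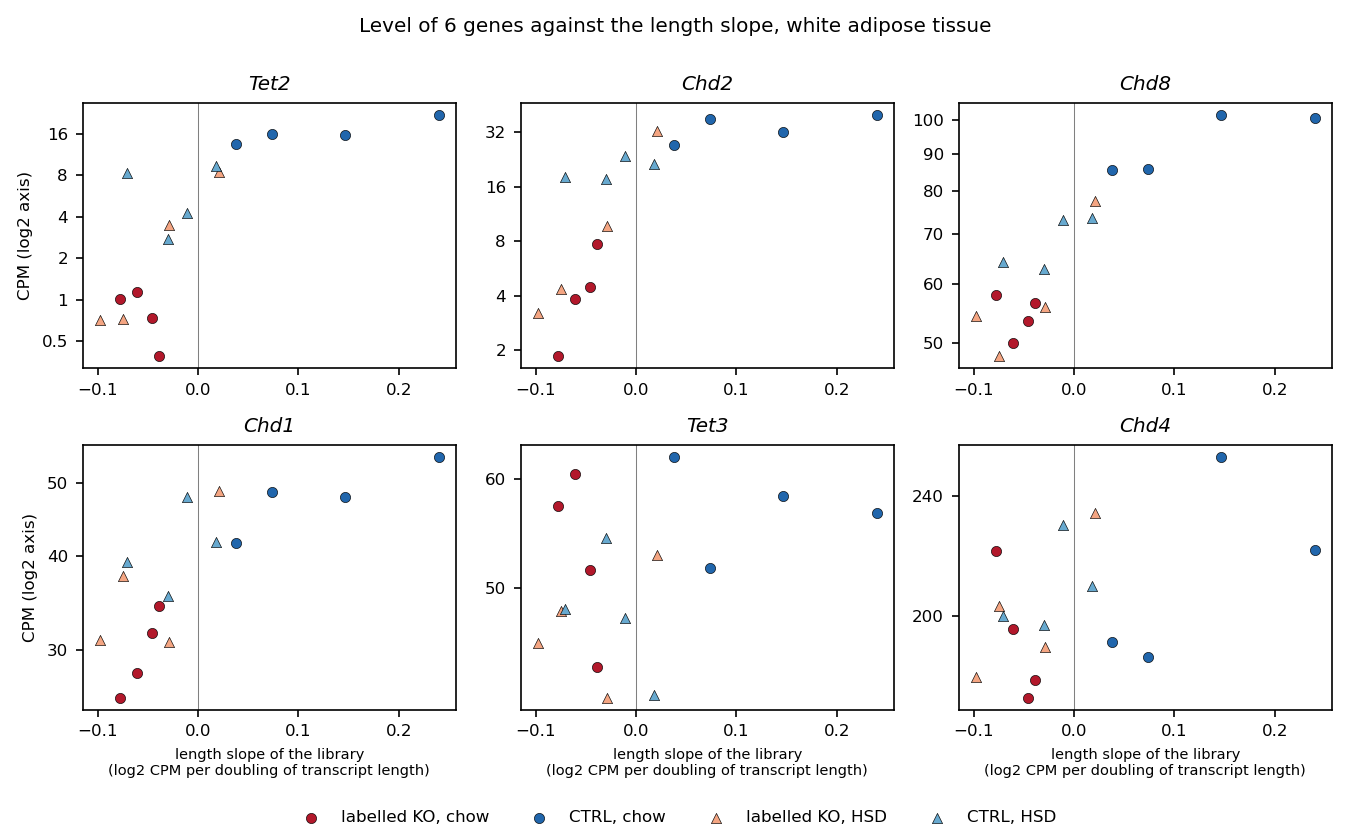
CPM (y axis, log2 scale) of 6 genes against the length slope of each of the 16 WAT libraries (x axis, log2 CPM per doubling of transcript length), with a symbol for each group. The 4 labelled-KO chow libraries lie left of the 4 CTRL chow libraries, and the highest Tet2 value (21.9 CPM) belongs to the library with the highest slope (0.24).

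Beside the 10 genes, other remodellers, chromatin enzymes and partners in 5 lists were tested in WAT, and 0 were called higher in labelled KO against CTRL on chow. The counts below stand beside 5.5% of all genes and 26.7% of the genes over 6.5 kb called lower in that comparison. Among ISWI, INO80 and other remodellers 6 of 13 were lower, led by Baz1b (-0.50 ± 0.09), Bptf (-0.66 ± 0.11), Ep400 (-0.47 ± 0.11) and Atrx (-0.45 ± 0.11), with a list median of -0.45. Among histone H3K4 and H3K36 methyltransferases 6 of 14 were lower, led by Setd2 (-0.70 ± 0.12), Kmt2c (-0.87 ± 0.15), Ash1l (-0.81 ± 0.14) and Nsd1 (-0.53 ± 0.10), with a median of -0.29. Among SWI/SNF subunits 2 of 18 were lower, Arid2 (-0.89 ± 0.14) and Pbrm1 (-0.64 ± 0.13), with a median of 0.003. Among NuRD partners of CHD4 it was 1 of 13, Gatad2b (-0.42 ± 0.09), with a median of -0.06. Of the other CHD genes, 0 of the 2 tested (Chd3 and Chd1l) were called. The longest transcripts of the genes called in these lists ran from 6.35 to 16.47 kb. With the length trend removed 1 of their genes was called lower, Arid2, with the slope as a covariate 0 were, and on HSD 0 were.

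Of 6 white adipocyte, 6 macrophage and 5 endothelial markers, 0 were called between labelled KO and CTRL in chow WAT, and of 5 fibroblast markers Pdgfra was called lower (log2 fold change -0.51). Hepatocyte markers summed to 20.93 to 382.1 TPM in labelled KO (median 29.47) and 12.53 to 20.48 TPM in CTRL (median 18.86). Of 3 tested, 2 (Ttr and Alb) were called higher, where 6.68% of all genes were called in either direction. Epithelial markers summed to 51.22 to 85.71 TPM in labelled KO and 37.65 to 45.18 TPM in CTRL, with 0 of 3 tested called. Of 3 erythroid, 4 lymphocyte, 4 cardiomyocyte and 1 muscle fibre markers tested, 0 were called. Their part in the results was not tested.

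The 5 genes whose log2 CPM was most like that of the 10 over the 16 WAT libraries, by mean Pearson r, were Ankrd17 (0.68), Trpm7 (0.68), Myo5a (0.67), Ltn1 (0.67) and Dip2c (0.67), with longest transcripts of 7.11 to 11.7 kb. Among the 10 themselves r ran from -0.34 between Tet1 and Chd1 to 0.91 between Chd1 and Chd2. The libraries share the length trend, so these values are descriptions.

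In liver, heart and muscle 0 of 145 tests of a member for genotype, diet or their interaction were called by edgeR, and 16 had an unadjusted p below 0.05. DESeq2 called 0 (15 below 0.05) and limma on log2(TPM + 1) called 0 (8 below 0.05). Tet1 was not tested in liver, where it had 0 to 7.48 estimated counts per library. The share of all genes called in liver was 0% for labelled KO against CTRL on chow, 0.0711% on HSD, 0.00888% for HSD against chow in labelled KO, 4.67% in CTRL and 0% for the interaction. In heart these shares were 0%, 0.0412%, 0.14%, 0.0247% and 0.00824% in the same order, and in muscle 0%, 0%, 0.00827%, 0.091% and 0%. Over the 145 tests the log2 values ran from -1.30 to 0.66.

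Tet2 and Chd2, the genes with the lowest log2 fold changes between genotypes in chow WAT, had no such gap on chow in the other tissues. The genes were chosen on WAT changes, so a gap in WAT alone is partly set by that choice. In liver Tet2 had 6.06, 6.82, 6.63 and 2.69 CPM in labelled-KO chow and 2.01, 2.45, 4.10 and 5.63 CPM in CTRL chow, with overlap (log2 fold change 0.66 ± 0.42). In heart its log2 fold change on chow was -0.03 ± 0.20 and in muscle 0.61 ± 0.25. Those of Chd2 were -0.13 ± 0.26 in liver, 0.03 ± 0.13 in heart and 0.19 ± 0.22 in muscle. None of these passed the edgeR threshold.

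Liver Chd7 had 13.8, 13.2, 13.4 and 15.2 CPM in labelled-KO chow and 20.1, 18.6, 16.3 and 18.8 CPM in CTRL chow. The groups did not overlap, and the log2 fold change of -0.41 ± 0.14 was not called (adjusted p = 0.274, edgeR).

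Heart Chd6 had 59.2, 52.04, 62.3 and 55.9 CPM in labelled-KO chow and 92.6, 73.6, 69.9 and 54.9 CPM in CTRL chow, a log2 fold change of -0.35 ± 0.12. On HSD it had 66.6, 70.95, 72.6 and 71.95 CPM in labelled KO and 54.8, 63.1, 62.04 and 52.4 CPM in CTRL, a log2 fold change of 0.28 ± 0.12. The groups overlapped on chow and were separate on HSD, with fitted values of opposite sign. The interaction of 0.63 ± 0.17 was not called (adjusted p = 0.447, edgeR).

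Muscle Tet1 had 1.96, 1.63, 1.30 and 1.27 CPM in labelled-KO chow and 0.585, 1.23, 1.10 and 1.03 CPM in CTRL chow. On HSD it had 0.905, 0.670, 0.914 and 0.649 CPM in labelled KO and 1.58, 1.11, 1.13 and 1.26 CPM in CTRL. The groups were separate on both diets, with log2 fold changes of 0.61 ± 0.31 on chow and -0.69 ± 0.32 on HSD, and the interaction of -1.30 ± 0.45 was not called (adjusted p = 0.619, edgeR). With limma on log2(TPM + 1) its HSD value and its interaction changed sign, at 0.12 and 0.07. Muscle Tet3 had 10.2, 16.8, 11.6 and 14.4 CPM in labelled-KO chow and 9.51, 10.2, 10.2 and 9.29 CPM in CTRL chow, narrowly separate and not called (0.44 ± 0.17, adjusted p = 0.376, edgeR). All 10 genes had fitted values above 0 in muscle for labelled KO against CTRL on chow, with a median of 0.17, where the median of the other genes over 6.5 kb was 0.15. In WAT 9 of the 10 were below 0. The muscle CTRL chow group holds the library with the slope of -0.222, replicate 1, which had the lowest Tet2 (4.68 CPM), Chd2 (10.2 CPM), Chd8 (22.4 CPM) and Chd9 (14.04 CPM) of its group.

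Outside WAT the slope term was not used in the choice of genes, but the 10 were picked as long transcripts. A positive slope means relatively more reads of long transcripts, so values above 0 are partly set by that choice. The share of other genes over 6.5 kb called for this term was not computed. In muscle Tet2 rose by log2 0.68 ± 0.16 per 0.1 of slope (adjusted p = 0.0267, edgeR) and Chd8 by 0.30 ± 0.08 (adjusted p = 0.0427, edgeR), where 4.63% of all genes were called. In heart Chd9 rose by 0.42 ± 0.10 (adjusted p = 0.0140, edgeR), where 10.9% were called. In liver 0 of 9 were called by edgeR, with 2 at an unadjusted p below 0.05, where 4.14% were called, and Chd2 was at 0.41 ± 0.13 (adjusted p = 0.0840). None of these calls held on leaving out each library in turn. Chd8 in muscle lost its call without any 1 of 11 of the 16 libraries, and over all 16 such fits it ran from 2.502 to 3.262 per unit of slope. Without muscle CTRL chow replicate 1, 0 of the 10 were called and Tet2 was at 0.55 per unit of slope, against 6.78 with it, while Chd2 and Chd9 turned to -1.90 and -0.19 per unit. Without heart labelled-KO HSD replicate 4, Chd9 was at 2.46 per unit and not called, against 4.15 with it. That library had 38.7 CPM of Chd9 and the highest slope in heart, 0.0724. Without liver labelled-KO HSD replicate 3, 1 member was called, Chd2. Tet3 was between -0.06 and 0.03 per 0.1 of slope in the 4 tissues.

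Levels per length were read from TPM, as mean ± SD over the 16 libraries of a tissue. Chd4 was the highest of the 10 in every tissue, at 50.1 ± 6.43 TPM in WAT, 18.4 ± 1.83 TPM in heart, 16.7 ± 3.66 TPM in liver and 14.2 ± 1.86 TPM in muscle. Chd8 came next in WAT (24.5 ± 6.62 TPM), liver (8.25 ± 2.51 TPM) and muscle (7.60 ± 2.14 TPM), where Chd7 (6.27 ± 1.36 TPM in muscle) lay within its spread, while in heart Chd6 (5.62 ± 1.01 TPM) and Chd8 (5.31 ± 1.42 TPM) did not differ beyond their spread. Tet3 was at 6.38 ± 1.04 TPM in WAT, 1.53 ± 0.252 TPM in liver, 1.27 ± 0.198 TPM in heart and 1.16 ± 0.358 TPM in muscle. It was the most abundant TET gene in WAT, whereas Tet2 was the highest in heart (1.58 ± 0.393 TPM) and muscle (2.02 ± 0.554 TPM), within its spread of Tet3 in heart. Tet1 had the lowest median of the 10 in each tissue, from 0.0222 TPM in liver to 0.282 TPM in heart.

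**Figure D5:**
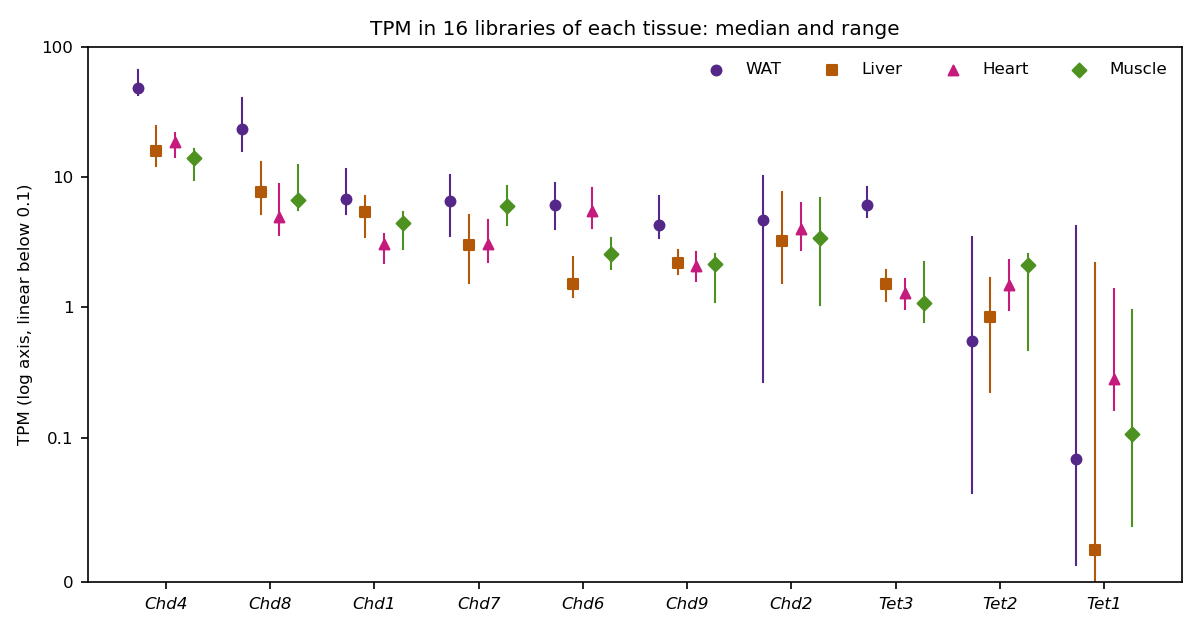
TPM (y axis, log scale, linear below 0.1) of the 10 genes in WAT, liver, heart and muscle; each symbol is the median of 16 libraries and each line their range. Chd4 is highest in every tissue, and all WAT values lie above all values of the other tissues for Tet3, Chd4 and Chd8. TPM is not adjusted here for the median gene of a tissue.

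TPM is a share of each tissue's RNA, and on the log2(TPM + 1) scale the median gene was itself higher in WAT by 0.95 against liver, 1.02 against heart and 0.87 against muscle. On TMM-scaled counts the median gene moved by 0.01 to 0.14, and the log2 differences below are on that scale. Tet3 was higher in WAT than in liver (0.62 ± 0.07), heart (0.87 ± 0.07) and muscle (1.25 ± 0.07). Tet2 was lower in WAT than in liver (-1.45 ± 0.23), heart (-2.83 ± 0.21) and muscle (-2.97 ± 0.21), and so was Chd2 (-1.50 ± 0.18, -2.26 ± 0.17 and -1.55 ± 0.17 in the same order). These averages over all 4 groups take in the WAT libraries with low Tet2 and Chd2 and do not describe CTRL chow alone. There Tet2 averaged 2.59 ± 0.599 TPM in WAT, 0.805 ± 0.639 TPM in liver, 1.73 ± 0.298 TPM in heart and 1.40 ± 0.665 TPM in muscle (SD, n = 4 each). Chd2 averaged 6.83 ± 1.34 TPM in WAT, 3.687 ± 0.8293 TPM in liver, 4.39 ± 0.687 TPM in heart and 3.36 ± 1.84 TPM in muscle. On the TPM scale both genes had their highest mean in WAT in CTRL chow. Over all 16 libraries of a tissue, Chd2 averaged 4.49 ± 3.10 TPM in WAT and 3.61 ± 1.69 TPM in liver. It averaged 4.08 ± 0.899 TPM in heart and 3.65 ± 1.565 TPM in muscle. The direction for Chd2 in WAT thus depended on the scale, and not only on the groups averaged. The TPM orders were not tested and are not adjusted for the higher TPM of the median gene in WAT. Chd8 was not called in WAT against any tissue, at -0.09 ± 0.06, 0.11 ± 0.06 and 0.07 ± 0.06. Chd4 was not called in WAT against liver (0.11 ± 0.05) or heart (-0.01 ± 0.05), and was higher in WAT than in muscle (0.57 ± 0.05).

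Chd6 was higher in heart than in liver (1.96 ± 0.07) and muscle (1.41 ± 0.07), and lower in WAT than in heart (-1.36 ± 0.06). Tet1 was higher in heart than in liver (3.90 ± 0.28) and muscle (2.04 ± 0.22). Chd7 was higher in muscle than in liver (0.73 ± 0.08) and lower in heart than in muscle (-0.80 ± 0.08). Chd1 was lower than in liver in WAT (-0.98 ± 0.07), heart (-0.87 ± 0.07) and muscle (-0.80 ± 0.07). All the tissue differences given as higher or lower passed the edgeR threshold. So did most genes: 85.1% of all genes were called for WAT against liver (8 of the 10 members), 80.6% for WAT against heart (7), 84.6% for WAT against muscle (7), 83.5% for heart against liver (8), 68.5% for heart against muscle (7) and 84.6% for muscle against liver (9).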

How the data were processed

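RNA from 64 libraries was quantified with kallisto against GRCm38, per the submitters' processing notes, with no version given in the sources used here. The authors deposited an estimated count and a TPM value per gene and library, for 19521 genes. Each estimated count was rounded to the nearest whole number, and every tissue was tested on its own with edgeR 4.0.16 (quasi-likelihood, 4 group means over 16 libraries, filterByExpr with a minimum count of 10, TMM scaling, robust) in R 4.3.3. SE is the absolute log2 fold change over the square root of F, and Benjamini-Hochberg adjustment ran over all genes tested. DESeq2 1.42.0 and limma 3.58.1 on log2(TPM + 1) were alternatives, the last understating changes of low genes. Tissues were compared in 1 fit over 64 libraries. Transcript lengths covered 99.38% of genes. The fits were also run on simulated counts, with outcomes not given here. The simulated genotype comparison held no length trend, so it does not bear on the overlap of genotype and length slope in WAT. Replicate libraries (96 pairs) held no identical columns, with a lowest chi-square per degree of freedom of 4.421. Named list genes are up to 4 per list with the smallest p, among those called. A further list of partner genes is not reported here. The members and lists were chosen with earlier results of these data known. Depth limits precision most for Tet1 and Tet2, and p-values measure the spread between libraries.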

Additional observations from a re-analysis of the deposited data

Results flagged for a closer look

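Dixon's test was run on the CPM of the 10 genes in 160 sets of 4 libraries, and 4 sets had a library far from its group, where chance gives about 1 in 20. Tet3 was at 16.1 CPM in liver labelled-KO HSD replicate 1, against 10.7 to 11.28 CPM in the other 3. Tet3 was at 16.85 CPM in heart CTRL HSD replicate 2, against 11.79 to 12.52 CPM in the other 3. Chd8 was at 25.74 CPM in heart CTRL chow replicate 3, against 33.25 to 33.35 CPM in the other 3. Chd9 was at 38.69 CPM in heart labelled-KO HSD replicate 4, against 23.12 to 25.23 CPM in the other 3, and that library also had the highest length slope in heart. Of 39 interactions of genotype and diet, 0 were called by edgeR.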

How the results depend on the processing

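Of 231 counts of called members under alternatives other than leaving out a library, 215 were within 1.5 times the value reported. Most counts reported within a tissue were 0, so this share mostly sets 0 against 0. It says little about the counts above 0, several of which moved. In WAT, labelled KO against CTRL on chow gave 3 called members with the length trend removed, 5 with the trend on median length removed, 0 with the slope as covariate and 1 without libraries beyond a slope of 0.1, against 6. HSD against chow in CTRL gave 0 with DESeq2 size factors, no low-count filter or any of the 4 treatments of length, 2 with the DESeq2 Wald test or limma on log2(TPM + 0.1), 4 with limma on log2(TPM + 1) and 3 with only the 8 libraries compared, against 1. The DESeq2 Wald test gave 1 for HSD against chow in labelled KO and 2 for the interaction, against 0 for both. The muscle slope term gave 1 with no low-count filter, against 2. The cause was not tested.

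Of 629 values of single members, 553 kept direction and side of the threshold and 20 changed sign. On chow in WAT, Tet1 turned to -0.388 and -0.889 and Chd8 to 0.179 and 0.186 with limma on TPM (pseudocounts 1 and 0.1). Tet3 turned to 0.299 and Chd4 to 0.119 with the length trend removed, and on median length Tet1 turned to -0.056, Tet3 to 0.146 and Chd4 to 0.147. Chd4 was 0.118 with the slope as covariate and 0.041 without libraries beyond 0.1. With limma, the Chd8 interaction in WAT was -0.342 and -0.356, and muscle Tet1 was 0.123 and 0.176 between genotypes on HSD, 0.106 and 0.09 for HSD against chow in labelled KO and 0.072 for the interaction. Relative to the median gene, Tet1 turned to -0.709 for WAT against liver and -0.15 for muscle against liver on log2(TPM + 1).

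Leaving out 1 library gave 0 to 1 called members for the heart and liver slope terms, 0 to 3 for the muscle slope term, 0 to 2 for HSD against chow in CTRL WAT, and 0 to 1 for the WAT interaction and for WAT genotype on HSD. The muscle slope values ran from -1.902 to 5.491 for Chd2 and -0.189 to 3.247 for Chd9 per unit, and the WAT chow values from -0.41 to 0.459 for Tet1 and -0.151 to 0.01 for Tet3. Title numbers are shared across tissues, but same-numbered libraries did not deviate together throughout (r from -0.065, medians 0.048 to 0.085). With the replicate block on that number, 9, 7, 7, 8, 7 and 8 members were called for WAT against liver, heart and muscle, heart against liver and muscle, and muscle against liver, against 8, 7, 7, 8, 7 and 9. No heart library passed a slope of 0.1, so that alternative gave no value there. Low counts limit Tet1 most, and Tet2 in labelled-KO WAT.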
